A study of Mus musculus with 6 samples.

Results

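The genes described here are the 3 coactivators of the PGC-1 family (Ppargc1a, Ppargc1b and Pprc1), the 3 estrogen-related receptors (Esrra, Esrrb and Esrrg), their muscle target and cofactor Perm1, the corepressor Nrip1 and the deacetylases Sirt1 and Sirt3. They were taken by symbol from the deposited gene table, and all 10 were found among its 24532 genes. RNA came from gastrocnemius, the large calf muscle, of C57BL/6 mice aged 12 weeks. The tested animals were 3 muscle-specific USP21 knockouts (Ckmm-Cre; USP21 flox/flox), and the controls were 3 USP21 flox/flox mice without the recombinase, whose genotype entry in the labels reads Litter. Every animal of both groups therefore carried the floxed alleles. The Ckmm promoter is active in striated muscle, so blood vessel, connective tissue and immune cells in the same piece of tissue keep an intact gene. Usp21, which encodes a deubiquitinating enzyme, was at 9.08, 7.19 and 7.47 CPM in knockouts 1 to 3 and at 19.3, 19.3 and 19.2 CPM in controls 1 to 3 (log2 fold change -1.28, SE 0.11, edgeR adjusted p = 0.0355). CPM are counts scaled to library size, here with edgeR's TMM factors.

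PGC-1 coactivators bind no DNA themselves. They dock on nuclear receptors and other transcription factors and recruit the machinery that opens chromatin and starts transcription. Their chief partners in muscle are the estrogen-related receptors, orphan receptors that need no known natural hormone and that switch on genes of mitochondrial respiration and fatty acid oxidation. PGC-1 alpha is induced by contraction, cold and fasting, through cyclic AMP, calcium and AMP-activated kinase signals. Nrip1 protein (RIP140) opposes the same receptors, and Sirt1 removes acetyl groups from PGC-1 alpha in an NAD-dependent reaction.

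Total counts lay between 53906493 and 65425324 in knockout libraries and between 48658436 and 67332846 in control libraries, and 22.1% to 27.3% of each total fell on its 10 most abundant genes. The muscle labels fitted the markers: 12 markers of skeletal muscle fibres summed to between 220800 and 259760 CPM in knockouts and between 192060 and 246820 CPM in controls. Libraries stood apart in other respects. Control 3 held little RNA of slow fibres, with 10 slow-fibre markers summing to 180 CPM, against 1108.6, 782 and 1773 CPM in knockouts 1 to 3 and 1459 and 1415 CPM in controls 1 and 2. Knockouts 1 and 2 had high summed levels of 14 immediate early genes (1232.5 and 1151 CPM), against 489 CPM in knockout 3 and 412 to 452 CPM in controls.

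Start regions upstream of 4 of the genes are shown because these genes gave the different patterns described further on: the lowest knockout value of Ppargc1a and of Nrip1 exceeded the highest control value, Esrrb was lowest in control 3, and Sirt1 was nearly level. The sequences are RefSeq's for GRCm38.p6 and end just before the exon at a start site listed for the gene. Where several starts were listed, as for Nrip1 and Esrrb, the most upstream was taken. For Ppargc1a the only listed start, at 51567725, lies inside the annotated span, which reaches 52115853 on the minus strand. The printed Ppargc1a window is therefore not the one before its outermost start. They lie at chr5:51567727-51567975 (minus strand), chr16:76373828-76374077 (minus strand), chr12:86360867-86361116 (plus strand) and chr10:63339051-63339285 (minus strand). Capitals mark the core of the cyclic AMP response element (TGACG on either strand) and the E-box CACGTG.
Ppargc1a: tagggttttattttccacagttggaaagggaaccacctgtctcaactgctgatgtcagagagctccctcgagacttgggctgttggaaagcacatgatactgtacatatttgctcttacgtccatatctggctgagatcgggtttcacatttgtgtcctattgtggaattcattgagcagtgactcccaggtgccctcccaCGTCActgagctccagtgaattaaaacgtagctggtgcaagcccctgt
Nrip1: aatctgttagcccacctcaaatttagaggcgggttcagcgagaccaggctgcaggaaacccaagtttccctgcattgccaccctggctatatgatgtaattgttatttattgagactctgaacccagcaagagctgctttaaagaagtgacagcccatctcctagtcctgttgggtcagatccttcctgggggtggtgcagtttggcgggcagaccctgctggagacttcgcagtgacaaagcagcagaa
Esrrb: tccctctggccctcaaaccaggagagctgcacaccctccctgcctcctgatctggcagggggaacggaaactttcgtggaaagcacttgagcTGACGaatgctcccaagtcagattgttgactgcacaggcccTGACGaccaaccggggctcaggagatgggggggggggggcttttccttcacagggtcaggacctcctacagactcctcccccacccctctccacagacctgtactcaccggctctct
Sirt1: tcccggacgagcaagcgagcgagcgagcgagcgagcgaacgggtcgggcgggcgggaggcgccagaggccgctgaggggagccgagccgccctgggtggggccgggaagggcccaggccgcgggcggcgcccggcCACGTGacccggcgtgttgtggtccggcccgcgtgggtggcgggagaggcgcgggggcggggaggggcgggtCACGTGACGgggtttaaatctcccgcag

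RefSeq start windows were found for 9 of the 10 genes, and 6 motifs were searched on both strands of the 250 bases before each start. Esrrb, Nrip1 and Sirt3 had 2 windows each, Esrrg had 4, and the others of the 9 had 1 each. The Ppargc1a window held 1 TGACG core, beginning 49 bases before the start on the opposite strand. The printed Esrrb window held 2, beginning 158 and 117 bases before its start. The Sirt1 window held 1 TGACG core, 39 bases before the start, and it also held 2 copies of CACGTG, at 115 and 43 bases, the nearer of which shares letters with the TGACG core. Of the 2 Sirt3 windows, not printed, 1 held a TGACG core on the opposite strand, 22 bases before the start. Such a core occurred in 17.8% of all 32851 windows and CACGTG in 6.02%, shares that count windows and not genes. The full cyclic AMP response element TGACGTCA (1.55% of windows), the estrogen-related receptor element TNAAGGTCA (1.14%) and the FoxO element GTAAACA (3.17%) had no match in the windows of these genes. The receptor core AGGTCA, held by 14.02% of windows, was in those of Pprc1 and Perm1 only, 113 and 202 bases before their starts. The printed Nrip1 window held none of the 6 motifs, which describes these letters in this window and no more.

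On the scale of FPKM, which corrects for gene length and so allows genes to be set side by side, Perm1 was the most abundant of the 10, with a mean of 75.0 FPKM over the 6 libraries (45.4 to 91.6). Esrra followed at 44.6 FPKM (37.1 to 50.1). Ppargc1a averaged 23.8 FPKM but ranged from 5.09 to 64.3, by far the widest range of the 10 genes, with its highest value 12.6 times its lowest. Sirt3 averaged 13.03 FPKM, Nrip1 7.17, Esrrg 6.88, Pprc1 5.22, Sirt1 3.13, Esrrb 1.94 and Ppargc1b 1.51 FPKM. Not every step in this order held library by library. Perm1 stood above Esrra in 6 of 6 libraries, Pprc1 above Sirt1 in 6 and Sirt1 above Esrrb in 6. Esrra stood above Ppargc1a in only 4 of 6, Ppargc1a above Sirt3 in 3, Nrip1 above Esrrg in 4, Esrrg above Pprc1 in 4 and Esrrb above Ppargc1b in 3, so these neighbours do not separate.

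**Figure D1:**
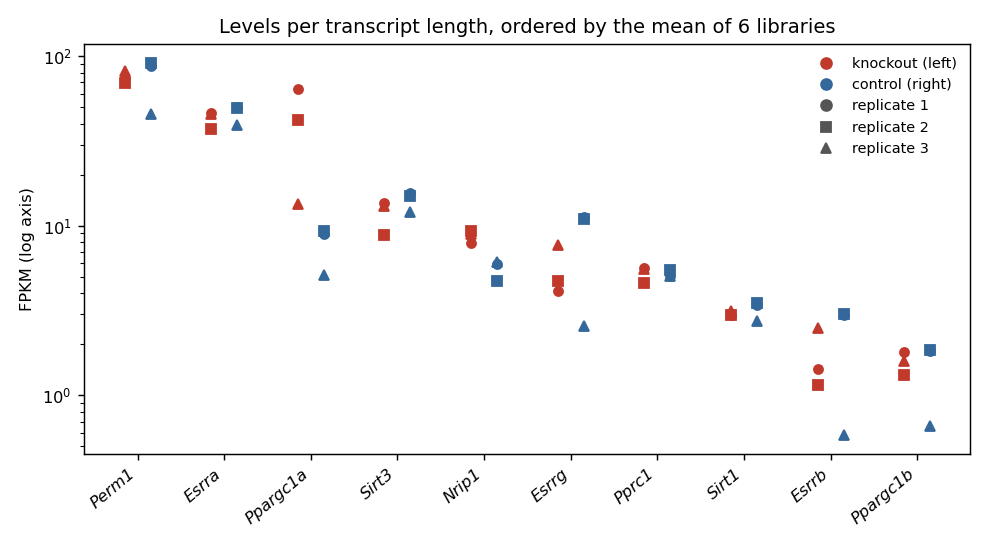
Deposited FPKM of the 10 genes on a log axis, ordered by their mean over the 6 libraries, with knockout libraries (red) left of control libraries (blue) and a marker shape for each replicate number. Perm1 and Esrra head the order, Ppargc1a spans 5.09 to 64.3 FPKM, and control 3 (blue triangles) is lowest of the 6 libraries for Perm1, Ppargc1a, Esrrg, Esrrb, Sirt1 and Ppargc1b.

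In the comparison of knockout with control muscle, the 3 knockout values of Ppargc1a and of Nrip1 all lay above the 3 control values, and the groups overlapped for the other 8 genes. Over all 14109 genes tested, 17.3% had groups that did not overlap. None of the 10 passed an edgeR adjusted p of 0.05, a threshold met by 8 of all genes tested (0.0567%), and 2 of the 10 had an unadjusted p under 0.05, against 11.6% of all genes tested. By limma-voom and by limma on log2 FPKM none of the 10 passed either. DESeq2's Wald test called Ppargc1a and Nrip1 higher, in a fit that called 2.14% of the 13555 genes to which it gave an adjusted p. The median log2 fold change of the 10 genes was 0.038, and that of all genes tested was -0.0037.

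**Figure D2:**
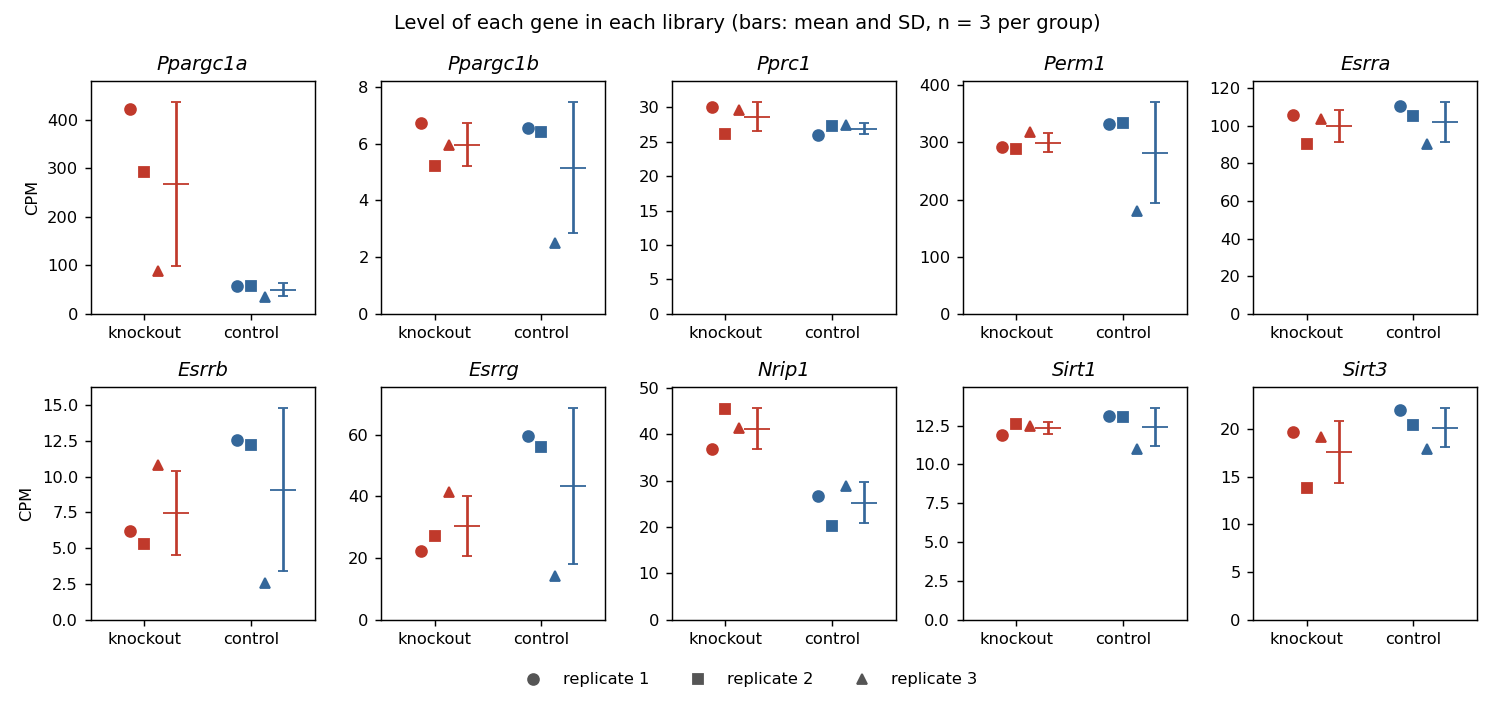
CPM of each gene in each library on axes that start at 0, with knockouts (red) left of controls (blue), 1 marker shape per replicate number, and the mean and SD of 3 libraries beside the points. The knockout points of Ppargc1a (87.7 to 422 CPM) and Nrip1 (36.7 to 45.4 CPM) lie above all control points. Control 3 (blue triangle) lies lowest for Esrrb, Esrrg, Ppargc1b, Perm1, Ppargc1a and Sirt1.

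Ppargc1a (Entrez 19017), which encodes PGC-1 alpha, had 27545, 14805 and 4805 counts in knockouts 1 to 3 and 2843, 3697 and 2248 counts in controls 1 to 3. These equal 422, 293 and 87.7 CPM in knockouts, against 56.7, 57.1 and 34.0 CPM in controls. The knockout libraries were uneven: knockout 1 was far above the highest control, while knockout 3 was above it by a much smaller step. Means were 268 ± 169 CPM in knockouts and 49.3 ± 13.2 CPM in controls (SD, n = 3 each), a 5.44-fold difference (log2 fold change 2.44, SE 0.52, 95% interval 1.22 to 3.67). The difference did not pass after adjustment (edgeR adjusted p = 0.241), and the exact two-sided permutation p was 0.1, the least that 3 libraries against 3 can give. Without knockout 3 the log2 fold change was 2.86 and passed (edgeR adjusted p = 0.0149), in a fit that called 0.982% of 14355 genes; over all alternatives the adjusted p ran from 0.013 to 0.763. The gene covers chromosome 5 from 51454249 to 52115853 (GRCm38.p6), and counts were given per gene, so messages from its alternative start sites were not separated.

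Ppargc1b (Entrez 170826), which encodes the closely related PGC-1 beta, was the least abundant of the family in FPKM. It was at 6.75, 5.21 and 5.95 CPM in knockouts 1 to 3 and at 6.56, 6.42 and 2.496 CPM in controls 1 to 3. Control 3 alone stood low, and the groups overlapped (log2 fold change 0.21, SE 0.34, 95% interval -0.58 to 1.01, edgeR adjusted p = 0.846). Without control 3 its log2 fold change turned to -0.12 (edgeR adjusted p = 0.791).

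Pprc1 (Entrez 226169), which encodes the growth-regulated family member PRC, was at 30.1, 26.2 and 29.6 CPM in knockouts and at 25.9, 27.2 and 27.5 CPM in controls. The groups overlapped and differed little (log2 fold change 0.09, SE 0.084, 95% interval -0.10 to 0.29, edgeR adjusted p = 0.714). The interval bounds a change at 0.29 upward on the log2 scale. Of the exonic bases of Pprc1, 2.82% overlap Ldb1 on the other strand, and whether strand was used in counting is not given in the sources used here.

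The balance within the family differed between libraries as Ppargc1a did. It made up 89.6%, 87.6% and 65.1% of the family's summed FPKM in knockouts 1 to 3 and 56.6%, 56.0% and 47.0% in controls 1 to 3. Pprc1 made up 7.86%, 9.62% and 27.1% in knockouts and 31.9%, 32.9% and 46.9% in controls. The difference in log2 FPKM between Ppargc1a and Ppargc1b within a library was 5.15, 5 and 3.06 in knockouts and 2.29, 2.33 and 2.95 in controls, and was larger in each knockout than in each control, by 1.88 on average. The same difference between Ppargc1a and Pprc1 was 3.51, 3.19 and 1.27 in knockouts and 0.83, 0.77 and 0.0040 in controls, larger by 2.12 on average. Each pair had an exact two-sided permutation p of 0.1, the least this design allows (0.15 after adjustment over the 3 pairs of genes compared), so the differences between these paralogs did not pass.

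**Figure D3:**
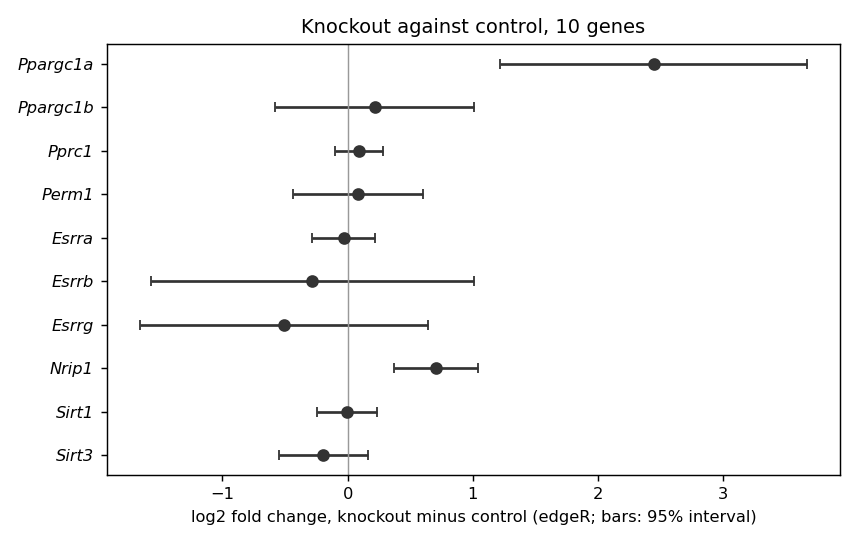
Log2 fold changes, knockout minus control, of the 10 genes from the edgeR fit over 14109 genes, with 95% intervals that are not adjusted for the number of genes. Intervals of Ppargc1a (1.22 to 3.67) and Nrip1 (0.37 to 1.04) lie above 0, while those of the other 8 genes include 0; Esrrb and Esrrg have the widest intervals of those 8.

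Nrip1 (Entrez 268903; chromosome 16, 76287403 to 76373827), the corepressor that recruits histone deacetylases and C-terminal binding proteins to nuclear receptors, was at 36.7, 45.4 and 41.4 CPM in knockouts 1 to 3 and at 26.7, 20.3 and 28.7 CPM in controls 1 to 3. Its knockout values lay close together, unlike those of Ppargc1a. Means were 41.2 ± 4.37 CPM in knockouts and 25.2 ± 4.42 CPM in controls (SD, n = 3 each), a 1.63-fold difference (log2 fold change 0.71, SE 0.14, 95% interval 0.37 to 1.04). It did not pass after adjustment (edgeR adjusted p = 0.241; range over the alternatives 0.00238 to 0.763, the lowest from DESeq2), and its exact two-sided permutation p was 0.1. Per unit length, Nrip1 was at 0.124, 0.221 and 0.674 times the FPKM of Ppargc1a in knockouts 1 to 3 and at 0.672, 0.507 and 1.21 times in controls 1 to 3, so on this ratio knockout 3 fell within the control range.

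Esrra (Entrez 26379), the most abundant receptor of its family here and itself a target of PGC-1 alpha, was at 106, 90.2 and 104 CPM in knockouts 1 to 3 and at 111, 105 and 90.4 CPM in controls 1 to 3. The groups overlapped almost fully (log2 fold change -0.03, SE 0.11, 95% interval -0.28 to 0.22, edgeR adjusted p = 0.936). Its level in knockout 1, where Ppargc1a was highest, lay within the control range. Exons of Trmt112 on the other strand overlap 1.66% of its exonic bases, and the microRNA gene Mir6990 on the same strand overlaps 2.07%.

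Esrrg (Entrez 26381; chromosome 1, 187608510 to 188214885), the receptor known for driving oxidative and vascular programmes in slow muscle, was at 22.4, 27.2 and 41.3 CPM in knockouts 1 to 3 and at 59.6, 55.9 and 14.2 CPM in controls 1 to 3. Every knockout lay below controls 1 and 2 and above control 3. The log2 fold change was -0.51 (SE 0.49, 95% interval -1.66 to 0.64, edgeR adjusted p = 0.723). Without control 3 it was -0.93 and still did not pass (edgeR adjusted p = 0.366). With the mean level of the slow-fibre markers as a covariate, a fit added after their low level in control 3 was seen, it was -0.74 (edgeR adjusted p = 0.186).

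Esrrb (Entrez 26380), a receptor best known from pluripotent cells and the least abundant of the family here, had 406, 268 and 594 counts in knockouts 1 to 3 and 628, 791 and 168 counts in controls 1 to 3. It was at 6.23, 5.31 and 10.8 CPM in knockouts and at 12.5, 12.2 and 2.54 CPM in controls. As with Esrrg, the 3 knockouts fell between control 3 and the other controls (log2 fold change -0.28, SE 0.55, 95% interval -1.57 to 1.01, edgeR adjusted p = 0.881). Without control 3 the log2 fold change was -0.73 (edgeR adjusted p = 0.46), and with the slow-fibre covariate -0.57 (edgeR adjusted p = 0.203).

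Within the receptor family, Esrra supplied 89.3%, 86.4% and 81.8% of the summed FPKM in knockouts 1 to 3 and 77.8%, 77.9% and 92.5% in controls 1 to 3. Esrrg supplied 7.92%, 10.9% and 13.8% in knockouts and 17.6%, 17.3% and 6.08% in controls. The log2 FPKM difference of Esrrg from Esrra averaged -3.02 ± 0.46 in knockouts and -2.75 ± 1.02 in controls (SD, n = 3 each). The change in this difference, -0.27, had an exact two-sided permutation p of 0.8, and without control 1 or control 2 it turned to 0.032 or 0.022, so the direction of the change rested on single libraries.

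Perm1 (Entrez 74183), a striated-muscle protein induced by PGC-1 and ERR that promotes oxidative gene expression, was at 292, 288 and 319 CPM in knockouts 1 to 3 and at 332, 335 and 180 CPM in controls 1 to 3. All 3 knockouts lay below controls 1 and 2 and above control 3 (log2 fold change 0.086, SE 0.22, 95% interval -0.43 to 0.60, edgeR adjusted p = 0.915). Without control 3 the log2 fold change was -0.15 (edgeR adjusted p = 0.524), and with the slow-fibre covariate it was -0.054 (edgeR adjusted p = 0.75).

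Esrrb, Esrrg, Perm1 and Ppargc1b thus shared a low level in control 3, the library with little slow-fibre RNA. There the slow myosin heavy chain Myh7 was at 6.63 CPM, against 235, 180 and 416 CPM in knockouts and 293 and 268 CPM in controls 1 and 2. The slow troponin Tnnt1 was at 4.48 CPM in control 3, against 71.1, 51.9 and 118 CPM in knockouts and 76.1 and 72.0 CPM in controls 1 and 2. Over all 10 slow-fibre markers the median log2 fold change was 0.45, with 6 positive and 4 negative. EdgeR and DESeq2 called none. In edgeR 1 had an unadjusted p under 0.05, against 11.6% of all genes tested. That median was -0.043 without control 3 and 0.13 without knockout 3. In whole muscle, fewer fibres of a type and less RNA per fibre cannot be told apart, and the part of fibre makeup in these values was not tested beyond the covariate fit. Among the knockouts, the order of Myh7 (knockout 3 highest, knockout 2 lowest) was also that of Esrrb. Perm1 had it too, but was nearly level in knockouts 1 and 2 (292 and 288 CPM). It was not the order of Esrrg, lowest in knockout 1, or of Ppargc1b, highest in knockout 1. Control 3 was also the lowest library for Ppargc1a (34.0 CPM, against 56.7 and 57.1 CPM in controls 1 and 2) and for Sirt1 (11.0 CPM). Without control 3 the log2 fold change of Ppargc1a was 2.235 (edgeR adjusted p = 0.378). With the slow-fibre covariate it was 2.4 (edgeR adjusted p = 0.21).

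**Figure D4:**
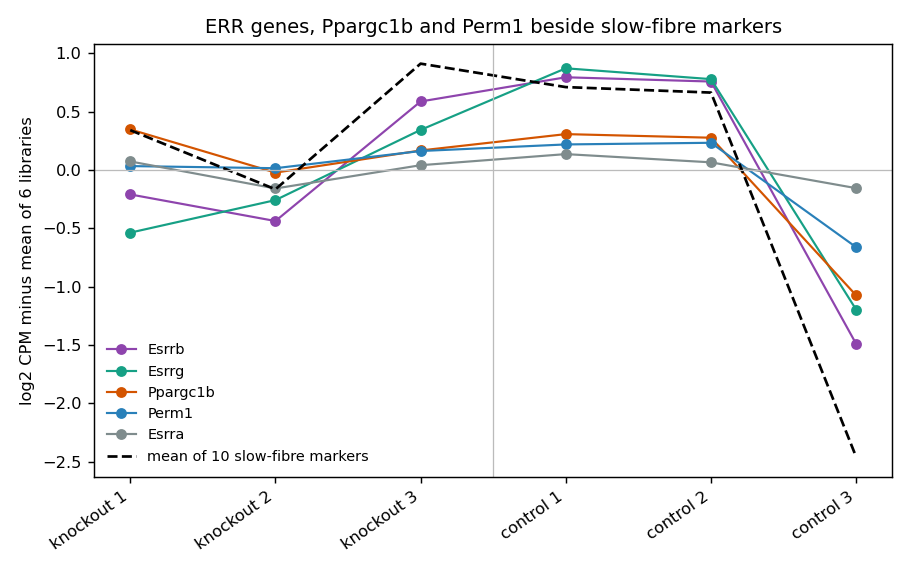
Log2 CPM of 5 genes in each library, each centred on its mean over the 6 libraries, with the centred mean log2 CPM of 10 slow-fibre markers as a dashed line and knockouts left of controls. Esrrb, Esrrg, Ppargc1b, Perm1 and the markers all drop in control 3, whereas Esrra (grey) stays within 0.16 of its mean in every library.

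Sirt1 (Entrez 93759), the nuclear NAD-dependent deacetylase, was at 11.9, 12.6 and 12.5 CPM in knockouts 1 to 3 and at 13.1, 13.04 and 11.0 CPM in controls 1 to 3. Its log2 fold change was the nearest to 0 of the 10 genes (-0.0091, SE 0.10, 95% interval -0.25 to 0.23, edgeR adjusted p = 0.984). An antisense gene, Gm16145, overlaps 1.22% of its exonic bases.

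Sirt3 (Entrez 64384), the main deacetylase of the mitochondrial matrix and a reported target of PGC-1 alpha and Esrra, was at 19.7, 13.8 and 19.1 CPM in knockouts 1 to 3 and at 22.0, 20.4 and 17.9 CPM in controls 1 to 3. Knockout 2 was the low library, and the other knockouts lay within the control range (log2 fold change -0.20, SE 0.15, 95% interval -0.55 to 0.16, edgeR adjusted p = 0.657). Without knockout 2 the log2 fold change was -0.051 (edgeR adjusted p = 0.941). Exons of Psmd13 and Ric8a on the other strand overlap 5.73% and 7% of its exonic bases, so its counts could include reads of these genes.

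Genes whose pattern over the 6 libraries was nearest to that of each member were ranked by the root mean square difference in centred log2 CPM, among 11160 genes. For Ppargc1a these were Maff, a small Maf transcription factor of the immediate early class (0.37 log2 units), the metallothionein Mt1 (0.38), the growth factor Igf1 (0.44), the transcription elongation factor Ell2 (0.46) and the secreted protease Adamts9 (0.48). Igf1 was at 77.3, 61.6 and 23.4 CPM in knockouts 1 to 3 and at 17.4, 18.3 and 15.9 CPM in controls 1 to 3. All 5 shared with Ppargc1a a lower level in knockout 3 than in the other knockouts, which follows from how they were picked. Nrip1, by contrast, was nearest to Noct (0.094) and Mat2a (0.12). Noct, a circadian deadenylase-like enzyme, was at 80.0, 94.0 and 83.8 CPM in knockouts and at 48.6, 43.6 and 54.4 CPM in controls. A shape shared with the member is what the ranking selects, and so is no separate result.

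The genes nearest to Esrrb and Esrrg were, like them, lowest in control 3, which the ranking itself brings about. Esrrb was nearest to Mb, which encodes the oxygen-binding myoglobin of oxidative fibres (0.16), and to Inpp5j (0.17). Mb was at 2385, 1532 and 3350 CPM in knockouts 1 to 3 and at 3406, 3734 and 874 CPM in controls 1 to 3. Esrrg was nearest to Inpp4b (0.19) and Apol6 (0.20), Perm1 to Tead1 (0.062) and Akap1 (0.064), and Ppargc1b to Khdrbs3 (0.074) and Pdlim1 (0.11). Esrra was nearest to Cox4i1, a subunit of cytochrome c oxidase (0.025), and Map4k3 (0.026), Pprc1 to Fam134a (0.019) and Tmem189 (0.029), Sirt1 to Pcmtd2 (0.020), and Sirt3 to She (0.039) and Dcakd (0.050). Among the members themselves, Esrrb and Esrrg lay 0.22 apart and Ppargc1b and Perm1 0.22, whereas Ppargc1a was 1.1 or more from each of the others.

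Over all genes tested, the log2 fold change was positive for 6956 and negative for 7153, edgeR called 0.0567% and DESeq2 2.14%. Of 38 known target genes of PGC-1 and ERR in muscle, it was positive for 31 and negative for 7. Their median was 0.11, against -0.0037 over all genes tested. Without control 3, however, the median was -1.3e-04. The genes called by edgeR were Ucp3, a mitochondrial carrier (512, 592 and 575 CPM in knockouts 1 to 3 and 107, 105 and 136 CPM in controls 1 to 3; log2 fold change 2.27, adjusted p = 0.00319), and Pdk4, the kinase that shuts off pyruvate dehydrogenase (1553, 1718 and 1968 CPM in knockouts and 329, 541 and 379 CPM in controls; 2.07, adjusted p = 0.0355). Without knockout 1, knockout 2, control 1 or control 3, edgeR called 1 gene of the list in place of 2. Among the knockouts, knockout 3, with the least Ppargc1a, had the most Pdk4 of the 3, and Ucp3 was highest in knockout 2. For Ppargc1a, Ucp3 and Pdk4 alike, every knockout lay above every control. The part of Ppargc1a in the levels of Ucp3 and Pdk4 was not tested. EdgeR called none of the respiratory genes of the list (DESeq2 called 3 genes of the whole list), with Cycs, the electron carrier cytochrome c, at 0.23 (edgeR adjusted p = 0.496), Idh3a of the citric acid cycle at 0.21 (0.418) and Cox4i1, the cytochrome c oxidase subunit, at -0.046 (0.902). Cpt1b stood at 0.037 (0.934) and Tfam, which packages and transcribes mitochondrial DNA, at 0.033 (0.894). These 5 were chosen after their values were seen, as was Ucp2, which had the smallest p of the list after Ucp3 and Pdk4. Ucp2 was at 34.9, 37.8 and 38.1 CPM in knockouts 1 to 3 and at 15.6, 21.6 and 20.5 CPM in controls 1 to 3 (log2 fold change 0.94, edgeR adjusted p = 0.121). In edgeR 4 of the 38 genes had an unadjusted p under 0.05, against 11.6% of all genes tested. Groups did not overlap in 5 of the 38, against 17.3% of all genes tested.

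**Figure D5:**
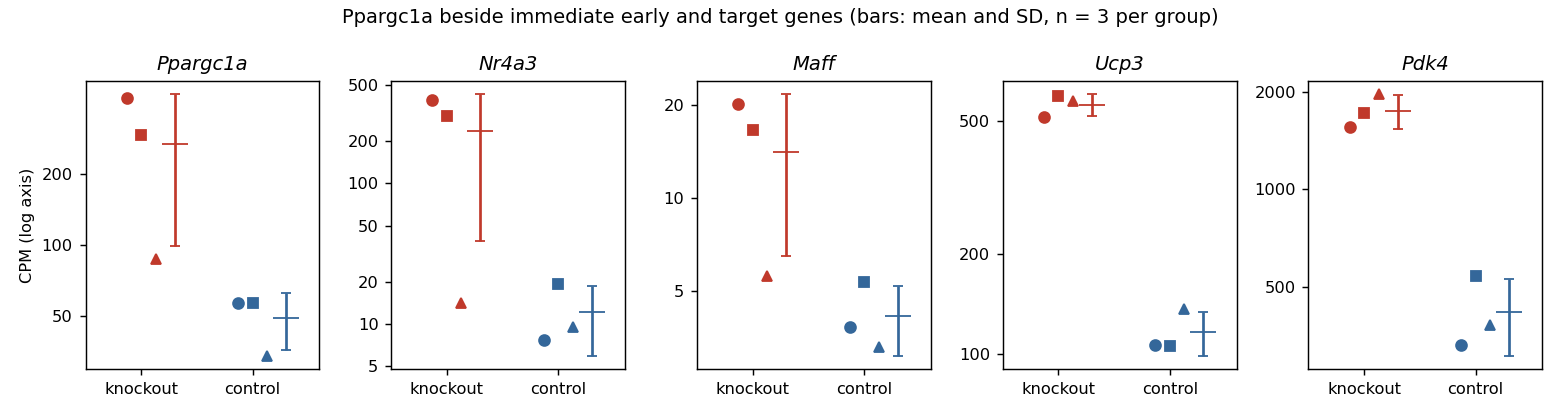
CPM on log axes of Ppargc1a, the immediate early genes Nr4a3 and Maff, and the target genes Ucp3 and Pdk4, with knockouts (red) left of controls (blue), 1 marker shape per replicate number, and mean and SD of 3 libraries. In knockout 3 (red triangle) Ppargc1a, Nr4a3 and Maff are far below knockouts 1 and 2, whereas Ucp3 (575 CPM) and Pdk4 (1968 CPM) are not. Maff was ranked nearest to Ppargc1a in these same libraries, so its likeness is no separate result. Fos, another immediate early gene, is not shown and had a lower mean in knockouts than in controls.

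Immediate early genes, which contraction and other acute stimuli induce within minutes, were at summed levels that differed among the knockout libraries in the same order as Ppargc1a. Of these sums, Nr4a3 alone gave 388 of 1232.5 CPM in knockout 1 and 302 of 1151 CPM in knockout 2. The mean log2 CPM of the list was 3.90, 3.85 and 2.78 in knockouts 1 to 3. In controls 1 to 3 it was 2.70, 3.36 and 2.34, so control 2 stood above knockout 3. Nr4a3, an orphan nuclear receptor, was at 388, 302 and 14.1 CPM in knockouts 1 to 3 and at 7.66, 19.3 and 9.58 CPM in controls 1 to 3. Maff, ranked above as nearest to Ppargc1a in these same libraries, was at 20.1, 16.6 and 5.57 CPM in knockouts and at 3.81, 5.33 and 3.28 CPM in controls. Fos, chosen after its values were seen, had a lower mean in knockouts than in controls: it was at 7.62, 7.06 and 4.69 CPM in knockouts 1 to 3 and at 22.9, 20.8 and 4.39 CPM in controls 1 to 3 (log2 fold change -1.31, edgeR adjusted p = 0.415). In this list of 14 genes the median log2 fold change was 0.45, 10 being positive, and none was called by edgeR (7 at an unadjusted p under 0.05, against 11.6% of all genes tested, and 4 by DESeq2, against 2.14%). Without knockout 3, edgeR called 3 of them, in a fit that called 0.982% of 14355 genes. The median ran from 0.28 to 0.67 as single libraries were left out. The smallest p values were those of Myc (0.76, edgeR adjusted p = 0.295) and Nr4a3 (4.26, edgeR adjusted p = 0.3). The part of such a stimulus in the level of Ppargc1a was not tested.

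Signalling genes that act on Ppargc1a and its protein had log2 fold changes of both signs. Among 29 genes for AMP-activated kinase, calcium, cyclic AMP and p38 signalling, the log2 fold change was positive in 14 and negative in 15 (median -0.0022; 0 called by edgeR, 3 at an unadjusted p under 0.05, 1 by DESeq2). Map2k6, the kinase that activates p38, had the smallest p, at 41.9, 39.998 and 44.2 CPM in knockouts 1 to 3 and 28.7, 33.5 and 32.6 CPM in controls 1 to 3 (log2 fold change 0.41, SE 0.087, edgeR adjusted p = 0.241). Crtc3, a coactivator of CREB, followed at 15.9, 13.5 and 15.3 CPM in knockouts and 19.7, 19.9 and 16.9 CPM in controls (-0.34, SE 0.11, edgeR adjusted p = 0.363). In both genes the groups did not overlap, as in 6 of the 29 genes and in 17.3% of all genes tested. Of all genes, 11.6% had an unadjusted p under 0.05 in edgeR, and DESeq2 called 2.14%.

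Transcription factors that PGC-1 coactivators dock on gave 0 calls by edgeR among 18 genes, 6 at an unadjusted p under 0.05 and 1 by DESeq2, and 8 had groups that did not overlap. Over all genes tested these shares were 11.6% at an unadjusted p under 0.05, 2.14% by DESeq2 and 17.3% without overlap. Their median was -0.044. Foxo1, a fasting-activated factor, was at 102, 91.4 and 118 CPM in knockouts 1 to 3 and at 67.0, 59.9 and 68.3 CPM in controls 1 to 3 (log2 fold change 0.68, SE 0.11, edgeR adjusted p = 0.167). Thra, a thyroid hormone receptor, was at 62.6, 66.9 and 68.5 CPM in knockouts and at 84.0, 84.7 and 76.2 CPM in controls (-0.31, SE 0.081, edgeR adjusted p = 0.311). These had the smallest p values of the list, and neither passed.

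Coactivator and corepressor complexes that work with the members gave 0 calls by edgeR among 23 genes (4 at an unadjusted p under 0.05, 0 by DESeq2), with a median of -0.031. Ncoa1, a p160 coactivator, was at 48.7, 60.4 and 47.1 CPM in knockouts 1 to 3 and at 42.1, 38.2 and 41.2 CPM in controls 1 to 3 (log2 fold change 0.36, edgeR adjusted p = 0.35). Its groups did not overlap, as in 5 of the 23 genes and in 17.3% of all genes tested. Of all genes, 11.6% had an unadjusted p under 0.05 in edgeR, and DESeq2 called 2.14%.

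The other sirtuins and enzymes of NAD metabolism, on which Sirt1 and Sirt3 depend, gave 0 calls by edgeR among 13 genes (1 at an unadjusted p under 0.05, 0 by DESeq2), with a median of -0.057. Of all genes, 11.6% had an unadjusted p under 0.05 in edgeR, and DESeq2 called 2.14%. Nampt, the rate-limiting enzyme of NAD salvage, was at 251, 232 and 221 CPM in knockouts 1 to 3 and at 183.5, 206 and 165 CPM in controls 1 to 3 (log2 fold change 0.34, SE 0.10, edgeR adjusted p = 0.35). Sirt6 was at 4.75, 4.66 and 4.33 CPM in knockouts and at 4.79, 5.88 and 5.31 CPM in controls (-0.22, SE 0.13, edgeR adjusted p = 0.574).

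Brown fat also makes much PGC-1 alpha, so markers of fat and of other cells were set beside the values. Of 10 fat markers, Ucp1 and Elovl3, which mark brown fat, had no count in any library, where 3 counts would equal at most 0.0617 CPM. The other 8, which include the brown-fat marker Cidea, passed the filter. The list summed to 276, 518 and 255 CPM in knockouts 1 to 3 and 262, 227 and 361 CPM in controls 1 to 3, highest in knockout 2. The part of fat in the level of Ppargc1a was not tested. The log2 fold change was positive for all 6 fibroblast markers (median 0.40). EdgeR called 0 of them, and DESeq2 called 1, against 2.14% of all genes. In edgeR 3 had an unadjusted p under 0.05, against 11.6% of all genes tested. The fibroblast markers summed to 2606, 2480 and 2180 CPM in knockouts and 1669, 2229 and 1429 CPM in controls. Their part in the level of Ppargc1a and Nrip1 was not tested. Macrophage markers summed to 73.4 to 119 CPM in knockouts and 74.3 to 129 CPM in controls, endothelial markers to 272 to 296 CPM in knockouts and 267 to 327 CPM in controls, and Schwann cell markers to 98.1 to 375 CPM in knockouts and 117 to 288 CPM in controls, so these ranges overlapped.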

How the data were processed

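Read counts per gene, whole numbers without normalization per the file headers, were deposited by the authors together with FPKM (per length and library size) and TPM (scaled to 1 total in every library). Per the labels' protocols the kit was a stranded mRNA kit. The submitters' processing notes name StringTie 1.3.4d, Bowtie2 2.3.4.1, FastQC 0.11.7, bcl2fastq 2.20.0 and the build mm10, but no roles. Columns outside the series numbered 0.

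Counts were tested with edgeR 4.0.16 (R 4.3.3): filterByExpr with a minimum count of 10, which kept 14109 genes and all 10 members, TMM factors, the quasi-likelihood test and Benjamini-Hochberg adjustment over all genes tested. Intervals come from its statistic; a prior count of 2 entered log2 CPM, and edgeR's common coefficient of biological variation came to 19.2%. For these totals 3 counts, the limit a count of 0 allows, equal 0.0446 to 0.0617 CPM, counting error only. Every pair of libraries differed beyond sampling noise (the smallest chi-square was 35.1 times its degrees of freedom). Nothing in the labels ties animals to litters, and p-values reflect only how far these samples spread, which may be technical. The code was tested on simulated counts.

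FPKM served to compare genes. Alternatives were DESeq2 1.42.0, limma 3.58.1 (voom, and log2 of FPKM plus 1 or 0.1), other scalings and filters, a replicate term and leaving out each library. Named genes are the members, from each further list up to 6 called genes or, where none was called, the 2 of smallest p, and the 5 genes of most like pattern for Ppargc1a and 2 for each other member, among genes with a mean log2 CPM of at least 1. Some genes that this rule names are not reported here. Members and lists were chosen with earlier results of these data known. Start windows and spans are from RefSeq (GRCm38.p6, the assembly named mm10), exon overlaps from GENCODE M21. Exonic bases at the gene side of a window were trimmed.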

Additional observations from a re-analysis of the deposited data

How the results depend on the processing

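Over all genes tested, DESeq2's Wald test called 210 higher and 80 lower, against 5 and 3 by edgeR; limma-voom called 1 lower. Limma on log2 of FPKM plus 1 and plus 0.1 called 1 higher and 0 lower each, and the slow-fibre covariate, chosen after seeing the data, gave 11 and 8. Leaving out single libraries gave 1 to 120 higher and 0 to 21 lower, both most without knockout 3. Among the 10 genes, DESeq2 called 2 higher (Ppargc1a at 2.45, edgeR 2.44), and leaving out single libraries gave 0 to 1. The log2 fold change of Ppargc1a then ran from 1.95 to 2.86, past the threshold without knockout 3 alone. Upper-quartile scaling, DESeq2's size factors in edgeR and both filters changed no call or direction of these genes.

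With the replicate number as a term (replicate block) edgeR called 0 genes higher and 0 lower, and so none of the 10 and neither Ucp3 nor Pdk4; Ppargc1a was at 2.21. Same-numbered libraries did not deviate together (correlations of -0.0082, -0.19 and -0.098), so the numbers were not taken to pair the animals.

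Directions near 0 turned with single libraries. Leave-one-out log2 fold changes ran from -0.12 to 0.42 for Ppargc1b, -0.15 to 0.22 for Perm1, -0.11 to 0.036 for Esrra, -0.73 to 0.017 for Esrrb and -0.089 to 0.030 for Sirt1, and the Esrrg minus Esrra difference from -0.86 to 0.032. Esrrb was at 0.017 with limma-voom, and Perm1 at -0.054 with the covariate. The causes were not tested. TPM in place of FPKM cannot alter a difference between genes within a library, and so tests nothing here. The lowest count of any of the 10 genes in a library was 165, for Ppargc1b.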
